A study of Mus musculus with 2 samples.

Results

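Nonclassical patrolling monocytes were picked out of single-cell RNA-seq of CD45+ leukocytes sorted from mouse hearts, in 1 control library and 1 library from mice given isoproterenol (ISO). A cell was selected when Treml4, Ace, Cd300e, and Eno3 together had at least 3 unique molecular identifiers (UMIs, each counting 1 captured RNA molecule). Selected cells also had to stay within 6 limits: at most 3 UMIs of C1qa, C1qb, and C1qc (macrophages), at most 1 of Siglech (plasmacytoid dendritic cells), at most 1 of Cd209a and Flt3 (dendritic cells), at most 2 of Cd79a, Cd79b, and Ms4a1 (B cells), at most 1 of Cd3d and Cd3e (T cells), and S100a8 plus S100a9 (neutrophils) under 1% of UMIs. The rule selected 165 of 11078 kept cells, 80 of 5641 in the control library and 85 of 5437 in the ISO library. These values of the 4 genes and of the limiting genes chose the cells and are given below as a description only.

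Nonclassical monocytes are the blood monocytes with little Ly6C that crawl along the inner wall of small vessels and survey the endothelium. They arise from classical, Ly6C-high monocytes, and their development and survival depend on the nuclear receptor Nr4a1. Classical monocytes, by contrast, carry the chemokine receptor Ccr2, leave the blood at sites of injury, and become macrophages there.

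The mice were wild-type C57BL6 females, and no transgene or Cre allele was involved. The ISO group received 200 mg/kg of isoproterenol, a beta-adrenergic agonist, by intraperitoneal injection, and the control group received the vehicle. Hearts were taken at 24 hours, digested with collagenase, and sorted for live CD45+ cells. Each library pooled the cells of 3 hearts, so single mice cannot be told apart, and was made from 15000 loaded cells with the 3′ version 3 kit of 10x Genomics. The labels give the ISO protocol for both libraries, so the control is known from its title and from the methods. With 1 library per group the difference between libraries cannot be told apart from the difference between treatments, no test was possible, and every interval below is a 95% interval that covers counting error only.

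The control library held 47382455 UMIs and the ISO library 58495112, and 15 barcodes occurred in both, none of them in a selected cell. The selected cells were sequenced less deeply in the control library, with a median of 4684 UMIs and 1968 genes per cell, than in the ISO library, with 9912 UMIs and 2998 genes. Mitochondrial transcripts took a median of 2.49% and 2.01% of their UMIs. Levels are therefore given as UMIs summed over the cells of a library and scaled to a total of 1000000 (CPM). Such a level cannot tell more RNA per cell from more cells with the RNA, so the number of cells with a UMI is given for genes that the results turn on. The most similar cells in the same libraries were classical monocytes, defined by at least 3 UMIs of Ly6c2, at least 5 of Lyz2, at most 1 UMI of the 4 rule genes, and the same 6 limits. There were 31 such cells in the control library and 706 in the ISO library.

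The 4 rule genes and the check genes lie on 3 mouse chromosomes of GRCm38 (mm10), and all are protein-coding. Treml4, a receptor of the TREM family, spans chr17:48264295-48275360. Ace, the enzyme that makes angiotensin II, spans chr11:105967945-105989964. Cd300e, an activating immunoglobulin-like receptor, spans chr11:115051917-115062177, and Eno3, the muscle form of the glycolytic enzyme enolase, spans chr11:70657202-70662513. Gngt2, a G protein gamma subunit, spans chr11:95837216-95845734, and Spn, the sialoglycoprotein CD43, spans chr7:127132232-127137823. Gngt2 and Spn were not used by the rule and serve to check the label.

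Promoters of an identity factor and of a check marker are shown because the levels of both genes are central to the comparisons that follow. The windows come from the RefSeq promoter table on GRCm38.p6 and run 5′ to 3′ along the gene's strand, from 250 bases before the transcription start to 50 bases after it. The Nr4a1 window is chr15:101266596-101266895 on the plus strand, and its capitals mark TGCGTCA, a variant of the cyclic AMP response element. The Spn window is chr7:127137774-127138073 on the minus strand, and its capitals mark ACTTCCT, a core that ETS family factors such as Spi1 bind.
Nr4a1: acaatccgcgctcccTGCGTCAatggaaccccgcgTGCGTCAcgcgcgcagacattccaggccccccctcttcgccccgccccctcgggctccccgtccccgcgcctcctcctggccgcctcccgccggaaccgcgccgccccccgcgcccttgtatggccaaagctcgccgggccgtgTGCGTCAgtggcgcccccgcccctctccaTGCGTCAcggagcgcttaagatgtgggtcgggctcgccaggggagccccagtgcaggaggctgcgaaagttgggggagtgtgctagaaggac
Spn: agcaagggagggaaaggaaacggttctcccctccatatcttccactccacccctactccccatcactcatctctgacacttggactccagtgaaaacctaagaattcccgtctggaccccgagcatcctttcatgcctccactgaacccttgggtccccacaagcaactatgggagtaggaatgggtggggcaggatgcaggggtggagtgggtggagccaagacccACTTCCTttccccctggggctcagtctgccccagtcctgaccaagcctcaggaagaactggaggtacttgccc

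The Nr4a1 window held 4 copies of TGCGTCA, whose first bases lay at -235, -215, -71, and -42 from the start. On either strand, 695 of 32851 windows of the table (2.12%) held at least 1 copy, and 1 window, that of Nr4a1, held as many as 4. The Spn window held 1 copy of ACTTCCT at -23, as did 3072 of 32851 windows (9.35%) on either strand. Among the 23 rule, check, and identity genes with a window in the table, 5 held ACTTCCT (Adgre4, Cd300e, Fcgr4, Rara, and Spn) and 1 held TGCGTCA. A match describes the letters of a window and is not a measured binding site.

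The selected cells were more clearly set apart by the 4 rule genes in the control library than in the ISO library. Before the limits, 279 control cells and 239 ISO cells had at least 3 UMIs of these genes. The C1q limit excluded 151 of the control cells (54.1%) and 123 of the ISO cells (51.5%), the B cell limit 92 and 12, the T cell limit 29 and 7, and the S100a8 and S100a9 limit 22 and 37. Among kept cells within the 6 limits, the control library held 12 cells with 2 UMIs, 9 with 3, 6 with 4, 11 with 5, and 54 with 6 or more. The ISO library held 79 cells with 2 UMIs, 24 with 3, 19 with 4, 9 with 5, and 33 with 6 or more. Most selected control cells thus lay well above the threshold, whereas the ISO counts declined through it. Just outside the threshold, at 2 UMIs, Gngt2 stood at 294 CPM in the control cells and 444 CPM in the ISO cells. Just inside it, at 3 UMIs, Gngt2 stood at 653 CPM and 350 CPM.

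**Figure D1:**
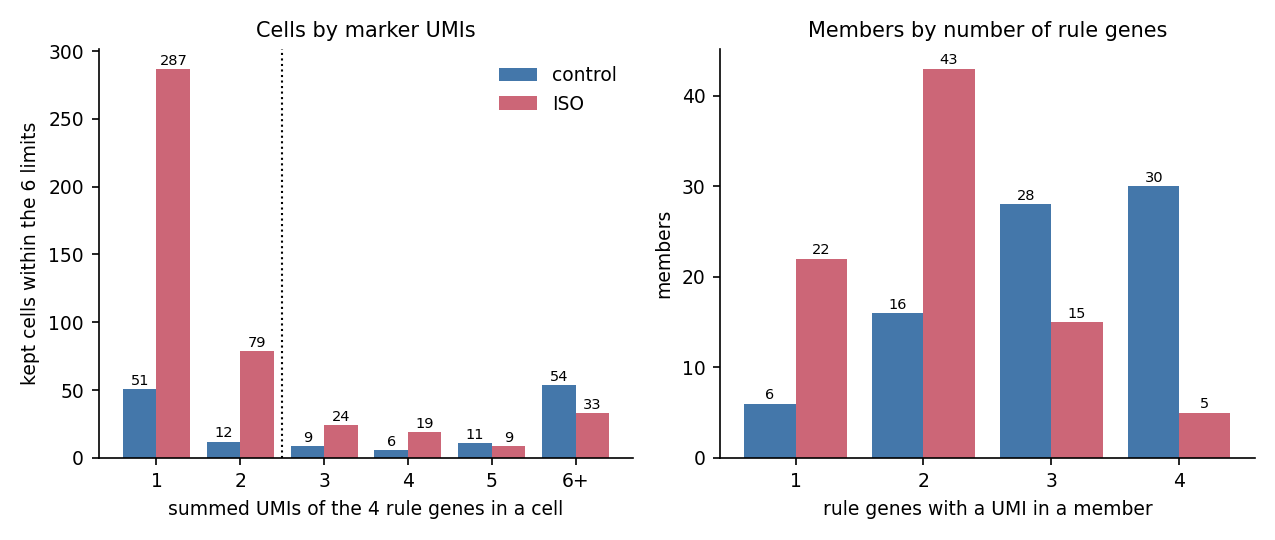
Left, number of kept cells within the 6 limits (vertical axis) by their summed UMIs of Treml4, Ace, Cd300e, and Eno3 (horizontal axis), with the selection threshold as a dotted line. Right, number of selected cells by how many of the 4 genes had a UMI; 30 control cells and 5 ISO cells had all 4.

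The rule genes themselves differed in how many were found together in a cell. Of the 80 control cells, 6 had UMIs of 1 rule gene, 16 of 2, 28 of 3, and 30 of all 4. Of the 85 ISO cells, 22 had UMIs of 1 rule gene, 43 of 2, 15 of 3, and 5 of all 4, although these cells were the more deeply sequenced. The sum of the 4 genes had a median of 8 UMIs per control cell (range 3 to 48) and 4 UMIs per ISO cell (range 3 to 16). Ace was found in 92.5% of control cells and 63.5% of ISO cells, and its summed level was 570.2 CPM and 151 CPM. Treml4 was found in 78.8% and 76.5% of cells, at 348 CPM and 178 CPM. Eno3 was found in 70.0% and 47.1%, at 309.6 CPM and 108 CPM. Cd300e was found in 61.3% and 16.5%, at 257 CPM and 27.9 CPM, and was the rule gene with the widest gap between the libraries. Because of this contrast, results below are also given for the 58 control cells and 20 ISO cells that had UMIs of 3 or 4 rule genes, a stricter set chosen after the data were seen.

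The share of the selected cells among all kept cells was about equal in the libraries, whereas their share among monocytes was much lower in the ISO library. In the control library they made up 1.42% of kept cells (1.13% to 1.76%), and in the ISO library 1.56% (1.25% to 1.93%), a log2 ratio of 0.14 (-0.30 to 0.58). Of the selected cells and classical monocytes together, they made up 72.1% in the control library (62.8% to 80.2%) and 10.7% in the ISO library (8.67% to 13.1%), a log2 ratio of -2.75 (-3.08 to -2.41). The second ratio followed the classical monocytes, which made up 0.550% of control cells and 12.99% of ISO cells. B cells, with at least 10 UMIs of Cd79a, Cd79b, and Ms4a1 and at most 3 of C1q, made up 8.76% of control cells and 0.497% of ISO cells and enter the first denominator.

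The share of all kept cells depended on the rule. With at least 6 rule UMIs there were 54 control cells (0.957%) and 33 ISO cells (0.607%), a log2 ratio of -0.66 (-1.28 to -0.03). With UMIs of 3 or 4 rule genes there were 58 (1.03%) and 20 (0.368%), a log2 ratio of -1.48 (-2.21 to -0.75). With at least 2 rule UMIs there were 92 and 164, a log2 ratio of 0.89. The lower share among monocytes was found under each of these rules. These shares are of sorted, recovered cells, so a change in the number of these cells in the heart and a change in the number of other leukocytes cannot be told apart.

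**Figure D2:**
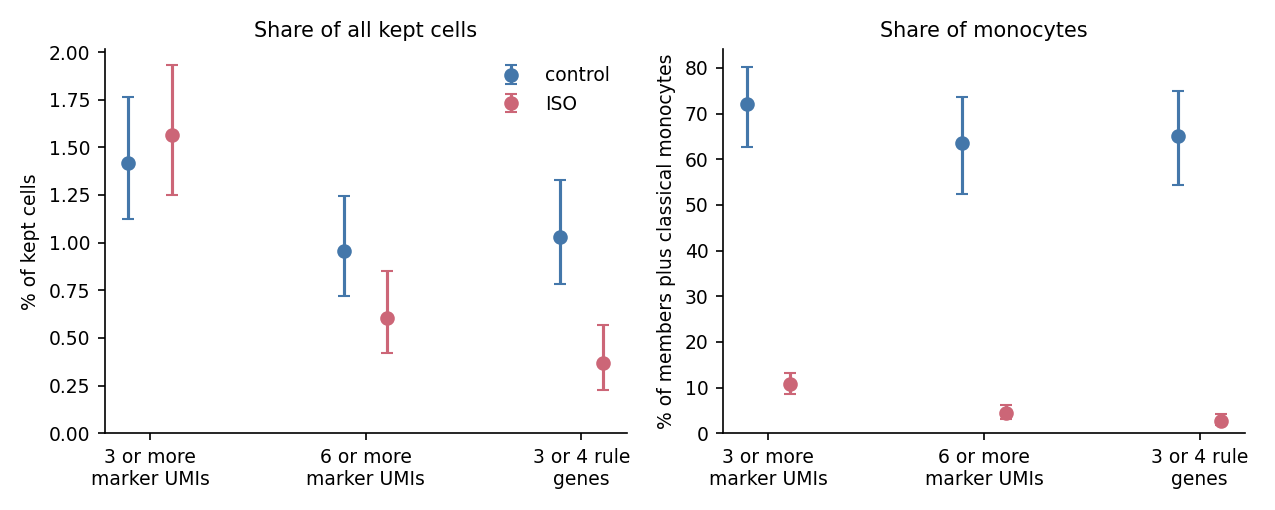
Share of the selected cells (points) with exact 95% binomial intervals (bars) in the control and ISO libraries, among all kept cells on the left and among selected cells plus classical monocytes on the right, under 3 selection rules. The control and ISO intervals overlap for the rule used here on the left (1.42% and 1.56%) and lie far apart on the right under all 3 rules.

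Gngt2 and Spn, which the rule did not use, marked the control cells well and the ISO cells less so. A Gngt2 UMI was found in 77 of 80 control cells (96.3%) and 78 of 85 ISO cells (91.8%), against 39.7% and 66.7% of B cells, which should lack it, at median depths of 4040 and 7903 UMIs. After each cell was thinned to 1000 UMIs, the Gngt2 shares were 72.5% and 57.6% in the selected cells and 12.1% and 22.2% in B cells. A Spn UMI was found in 61 control cells (76.3%) and 35 ISO cells (41.2%), against 7.49% and 18.5% of B cells. Thinned to 1000 UMIs, the Spn shares were 33.8% and 10.6%. In all, 2 control cells and 5 ISO cells had a UMI of neither gene. Within each library the levels of both genes were higher where more rule genes were found. From ISO cells with 1 rule gene to those with 2 and to those with 3 or 4, Gngt2 went from 249 to 595 to 959 CPM, and Spn from 24.9 to 58.1 to 107 CPM. In the control cells the same steps gave 489, 842, and 1447 CPM for Gngt2 and 77.2, 273, and 563 CPM for Spn.

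Genes of nonclassical identity were lower in the ISO cells as a group. Of 24 genes of this list with at least 20 UMIs over both libraries, 18 were past 2-fold lower in ISO, none was past 2-fold higher, and 6 lay within 2-fold. The median log2 ratio was -1.50. Over all 6834 genes described, 14.3% were past 2-fold lower, 11.4% were past 2-fold higher, and the median was -0.11. In the stricter set of 58 and 20 cells, 15 of the 24 genes were past 2-fold lower and none was higher, with a median of -1.35, against 14.7% of 4290 genes lower and 11.8% higher. The decline was not particular to the selected cells. In classical monocytes the median of this list was -0.79, beside -0.16 over 6759 genes. There Spn had a log2 ratio of -3.01 and Itgal of -1.41, whereas Fcgr4 (1.25) and Cd9 (3.89) went the other way.

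Nr4a1 stood at 2193 CPM in the control cells and 934 CPM in the ISO cells, a log2 ratio of -1.23 (-1.36 to -1.10). The median cell had 2182 CPM in the control library and 829 CPM in the ISO library, with lower and upper quartiles of 1069 and 3279 CPM in the control library and 399 and 1229 CPM in the ISO library. Control cells were thus mostly above ISO cells, with overlap between the groups. Among cells with 3 or 4 rule genes, Nr4a1 was at 2429.5 CPM and 1177 CPM, a log2 ratio of -1.04 (-1.25 to -0.85). Classical monocytes showed the same direction, from 1331 CPM to 527 CPM, so that Nr4a1 was higher in the selected cells than in classical monocytes by 0.72 in the control library and 0.83 in the ISO library on the log2 scale. Pou2f2, a transcription factor also linked to these cells, went from 326 CPM to 62.8 CPM, a log2 ratio of -2.37 (-2.82 to -1.95).

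Genes of adhesion, chemotaxis, and uptake showed the same direction. Itgal, the alpha chain of the LFA-1 integrin that holds these cells to the endothelium, went from 857 CPM to 222 CPM, a log2 ratio of -1.95 (-2.19 to -1.71). Its median per cell was 839 CPM in the control library and 169 CPM in the ISO library. Spn went from 472 CPM to 62.8 CPM (log2 ratio -2.90, -3.34 to -2.50), and Gngt2 from 1263 CPM to 610.2 CPM (log2 ratio -1.05, -1.21 to -0.89). Cx3cr1, the fractalkine receptor, went from 273 CPM to 85.7 CPM. Fcgr4, an Fc receptor for IgG, went from 279 CPM to 82.8 CPM, and the scavenger receptor Cd36 from 470.4 CPM to 90.7 CPM. S1pr5, a sphingosine 1-phosphate receptor needed for these monocytes to leave the bone marrow, went from 120.2 CPM (38 of 80 cells) to 8.97 CPM (9 of 85 cells). Hpgd, which breaks down prostaglandins, went from 356 CPM to 30.9 CPM. Not every identity gene was lower: the tetraspanin Cd9 was at 462 CPM and 521 CPM, a log2 ratio of 0.17 (-0.05 to 0.40). Fabp4 was at 389 CPM and 359 CPM, but 73.6% of its ISO UMIs came from 1 cell, and in the stricter set it was at 483 CPM and 171 CPM.

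**Figure D3:**
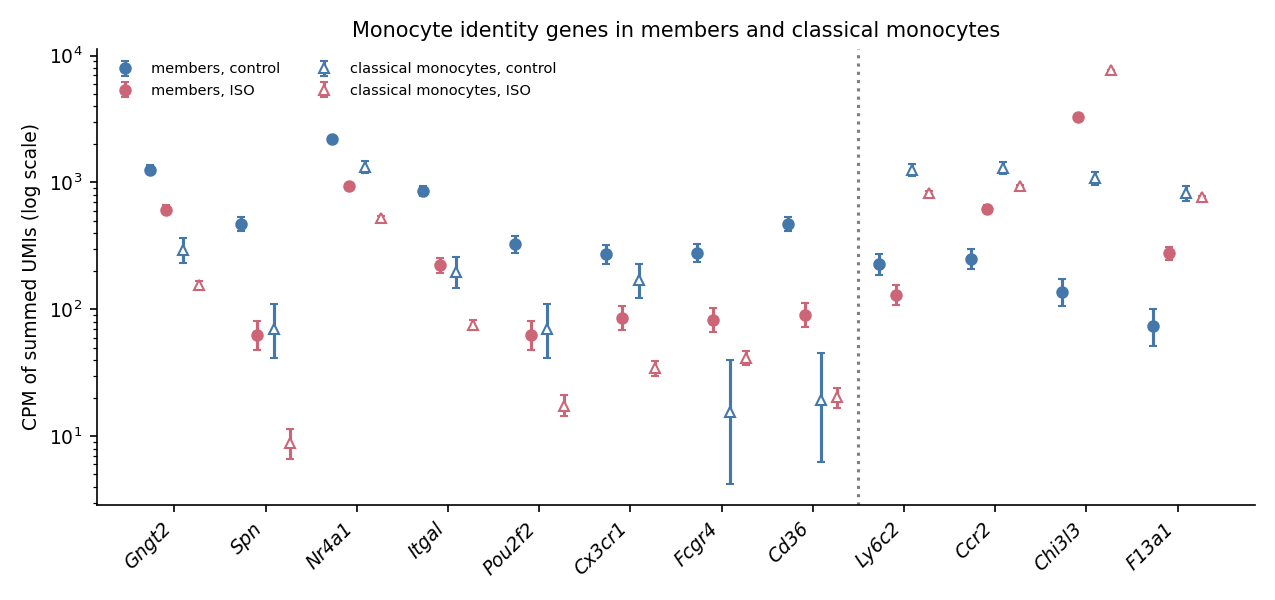
CPM of summed UMIs on a log scale (points) with exact 95% Poisson intervals (bars) in selected cells (filled circles) and classical monocytes (open triangles) of the control and ISO libraries. Genes left of the dotted line are of nonclassical identity and those right of it of classical identity; Itgal stands at 857 CPM and 222 CPM in the selected cells, above the classical monocytes of the same library.

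Within each library the selected cells still differed from classical monocytes in the direction of their label. Of 4957 genes, 103 (2.08%) were past 2-fold higher in the selected cells in both libraries, and 26 (0.525%) were past 2-fold lower in both. Of the nonclassical identity genes, 15 of 24 were higher in both and none lower. In the single libraries 17 of the 24 were higher in the control library, against 10.1% of all genes, and 16 in the ISO library, against 3.75%. Of the classical identity genes, 8 of 20 were lower in both and none higher, with 11 lower in the control library, against 7.08% of all genes, and 8 in the ISO library, against 0.908%. Gngt2 was higher than in classical monocytes by 2.09 in the control library and 1.97 in the ISO library on the log2 scale, Spn by 2.73 and 2.83, and Itgal by 2.11 and 1.57. Dusp16, a phosphatase of MAP kinases, was higher by 3.23 and 1.64, and Cd300ld, a CD300 family receptor, by 3.38 and 1.44. Cd274, which encodes PD-L1, was higher by 2.03 and 1.75, at 165 CPM and 139 CPM in the selected cells, a log2 ratio between the libraries of -0.26 (-0.66 to 0.16). The corepressor Cbfa2t3 was higher by 2.25 and 1.49. The classical definition used Ly6c2 and Lyz2, so the level of neither is a result here. Counts of classical identity genes that include them are partly fixed by that definition. Chi3l3, the chitinase-like protein Ym1, had log2 ratios to classical monocytes of -2.97 in the control library and -1.21 in the ISO library. These ratios were -3.47 and -1.46 for the coagulation factor F13a1, -1.76 and -1.55 for haptoglobin (Hp), and -1.18 and -1.83 for Mgst1, a glutathione transferase. Outside the list, the interferon-inducible genes Ms4a4c (-1.87 and -1.20) and Mnda (-2.58 and -1.06) were also lower in both libraries.

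Classical identity genes were divided between the libraries. Of 21 genes, 9 were past 2-fold higher in ISO (background 11.4%), 2 were past 2-fold lower (background 14.3%), and the median log2 ratio was 0.73. Chi3l3 went from 136 CPM to 3304 CPM, a log2 ratio of 4.59 (4.25 to 4.97), with a UMI in 11 of 80 control cells and 64 of 85 ISO cells. Fn1, fibronectin, went from 175 CPM to 1955 CPM, Ccr2 from 248 CPM to 618 CPM, and F13a1 from 73.3 CPM to 276 CPM. The calcium-binding protein S100a4 went from 1462 CPM to 3025 CPM. Ly6c2 did not follow them, at 228 CPM and 131 CPM, a log2 ratio of -0.81 (-1.18 to -0.43), and 11 control cells and 18 ISO cells had at least 3 Ly6c2 UMIs. Plac8 was at 2130.2 CPM and 1292 CPM, and Mgst1 at 209.8 CPM and 55.8 CPM. Among cells with 3 or 4 rule genes, 7 of 18 genes were past 2-fold higher and 3 past 2-fold lower, and Chi3l3 was at 124 CPM and 3219 CPM. In ISO B cells Chi3l3 stood at 3886 CPM when summed and 0 in the median cell, Fn1 at 1366 CPM and 320.2 CPM, and Ccr2 at 597 CPM and 272 CPM. With the B cell level of each library subtracted, the log2 ratio reversed to -0.28 for S100a4 and -3.31 for Ccr2, and Chi3l3 and F13a1 had no value. The subtracted Ccr2 value rests on a small remainder, 618 CPM against 597 CPM in ISO B cells, and shows no direction.

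Inflammatory cytokine and chemokine genes were higher in the ISO cells almost throughout. Of 26 genes, 21 were past 2-fold higher (background 11.4%), none was past 2-fold lower, and the median log2 ratio was 1.99. In the stricter set 21 of 24 were past 2-fold higher (background 11.8%), with a median of 1.958. Il1b, the secreted alarm cytokine of the inflammasome pathway, went from 5387 CPM to 14129 CPM, a log2 ratio of 1.39 (1.33 to 1.45). Its median per cell was 2072 CPM in the control library and 13304 CPM in the ISO library, and it was found in 73 of 80 and 81 of 85 cells. Cxcl2, a neutrophil attractant, went from 674 CPM, with a UMI in 32 cells, to 13216 CPM, with a UMI in 80 cells, a log2 ratio of 4.29 (4.14 to 4.45). Ccl2, the ligand of Ccr2, went from 20.4 CPM in 6 cells to 3252 CPM in 65 cells, a log2 ratio of 7.25 (6.44 to 8.38). Cxcl3 had no UMI in the control cells and 331 UMIs in 26 ISO cells, at least 54.0-fold higher against a floor of 3 UMIs over the control cells. Il1a had 1 control UMI and stood at 387 CPM in the ISO cells, a log2 ratio of 6.99 (5.08 to 12.88). The NF-kappa-B inhibitor Nfkbia went from 2827 CPM to 6672 CPM, and the chemokine Ccl4 from 1305 CPM, of which 1 cell held 44.3%, to 3896 CPM. From the toll-like receptor list, Cd14, the lipopolysaccharide coreceptor, went from 552 CPM to 3980.1 CPM, a log2 ratio of 2.85 (2.67 to 3.03). A Cd14 UMI was found in 46 control cells and 81 ISO cells. After thinning to 1000 UMIs, which evens out the depth, the shares of control and ISO cells with a UMI were 68.8% and 87.1% for Il1b, 23.8% and 78.8% for Cxcl2, and 21.3% and 77.6% for Cd14. In thinned B cells they were 8.91% and 48.1% for Il1b, 7.29% and 55.6% for Cxcl2, and 3.24% and 51.9% for Cd14.

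These genes were also high in classical monocytes of the ISO library, and their RNA was found in its B cells. In the control library 15 of 22 genes of the list were past 2-fold lower in the selected cells than in classical monocytes, beside 7.08% of all genes. In the ISO library none was, beside 0.908% of all genes. In ISO classical monocytes Il1b was at 12756 CPM, Cxcl2 at 14529 CPM, and Ccl2 at 5151 CPM. In the 27 ISO B cells Il1b was at 11578 CPM when summed but 1240 CPM in the median cell, and Cxcl2 at 10929.9 CPM when summed but 465 CPM in the median cell, whereas the 494 control B cells had 782 CPM and 200.4 CPM when summed. With the B cell level of each library subtracted, the log2 ratio reversed to -0.85 for Il1b and -0.87 for Nfkbia, and Ccl2, Ccl4, Cxcl3, and Il1a had no value because they lay at or under that level in a library. The part that RNA from other cells of the library had in the levels of the selected cells was not tested.

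**Figure D4:**
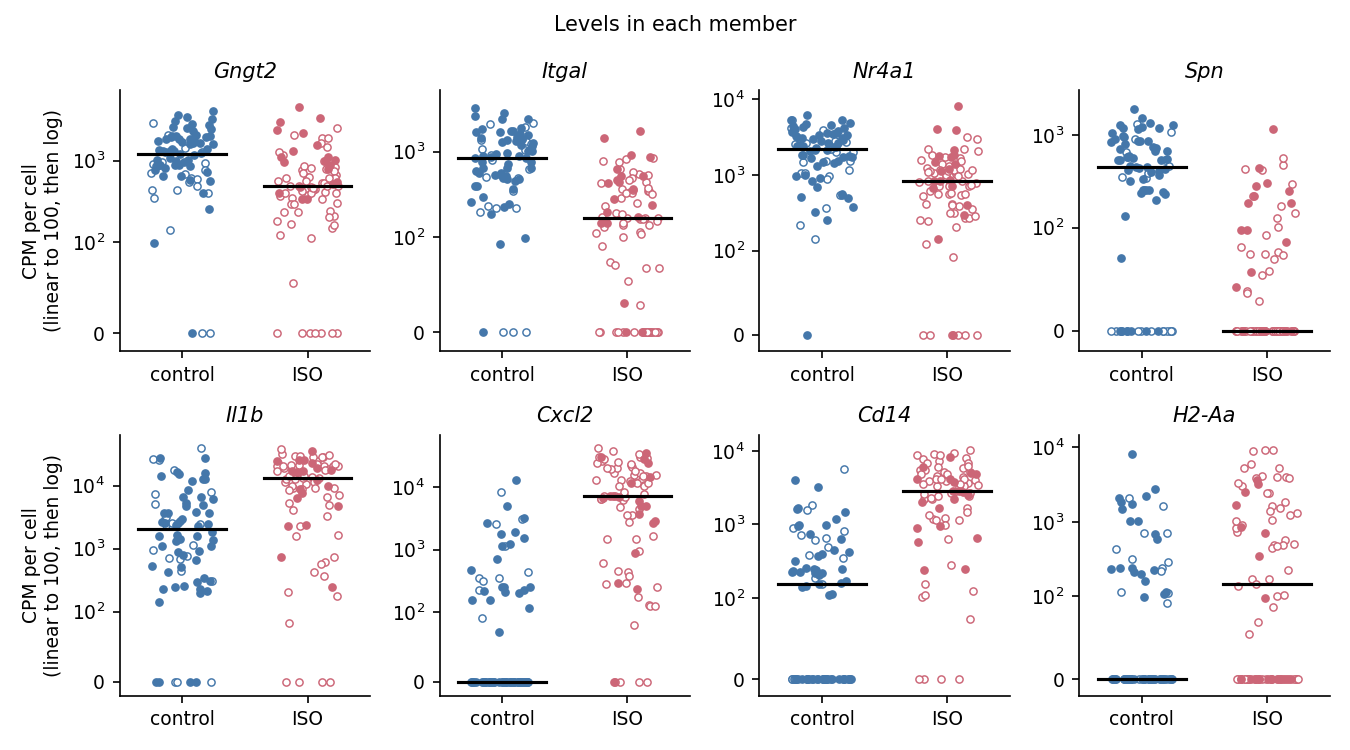
CPM of 8 genes in each selected cell (vertical axis, linear up to 100 and logarithmic above) in the control and ISO libraries. Filled points are cells with UMIs of 3 or 4 rule genes, open points are the rest, and black lines are medians; the Il1b medians are 2072 CPM and 13304 CPM and the Itgal medians 839 CPM and 169 CPM.

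Genes of macrophage differentiation were also higher in ISO. Of 19 genes, 15 were past 2-fold higher (background 11.4%) and none past 2-fold lower (background 14.3%), with a median log2 ratio of 2.32, and 12 of 16 were past 2-fold higher in the stricter set (background 11.8%). Spp1, osteopontin, had 1 UMI in the control cells and 4408 in the ISO cells, found in 60 of 85 cells, a log2 ratio of 10.49 (8.60 to 16.38). Its summed ISO level was 4395 CPM, but the median ISO cell had 243 CPM. It stood at 5539 CPM in ISO cells with 1 rule gene, 4866 CPM with 2, and 2264 CPM with 3 or 4. Thrombospondin 1 (Thbs1) went from 509 CPM to 2546 CPM, and the galectin Lgals3 from 943 CPM to 2194 CPM, a difference that reversed to a log2 ratio of -0.0907 with the B cell level subtracted. Arginase 1 (Arg1) went from 6.11 CPM, in 2 cells, to 471 CPM, in 38 cells. Apoe, which macrophages express strongly, differed less, at 2796 CPM and 3429.8 CPM, a log2 ratio of 0.29 (0.20 to 0.39). In ISO B cells Spp1 stood at 2058 CPM when summed and 202 CPM in the median cell, and Arg1 at 783 CPM and 0. Macrophage marker transcripts, C1q genes included, summed to 2992 CPM in the control cells and 8853 CPM in the ISO cells, against 2383 CPM and 10206 CPM in classical monocytes. Spp1 and Arg1 were part of this sum, with 4408 and 472 of its 8879 UMIs in the ISO cells. In the control cells they had 1 and 3 of its 1469 UMIs, so the sum is not a separate measure.

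MHC class II genes differed in opposite directions in the selected cells and in classical monocytes, and the result depended on which cells were selected. All 7 genes with enough UMIs were past 2-fold higher in the ISO cells (background 11.4%), with a median log2 ratio of 1.29, whereas the median in classical monocytes was -1.13. Over 6759 genes, the log2 ratio was higher in the selected cells than in classical monocytes by at least 1 for 11.0% and lower by at least 1 for 8.85%. For Cd74, H2-Ab1, H2-Aa, and H2-Eb1 it was higher by 2.21, 3.43, 2.73, and 2.43. Cd74, the invariant chain, went from 2199 CPM to 4642 CPM in the selected cells and from 2089 CPM to 954 CPM in classical monocytes. H2-Ab1 went from 432 CPM to 1494 CPM in the selected cells and from 727 CPM to 234 CPM in classical monocytes, and H2-Aa from 511 CPM to 1238 CPM and from 542 CPM to 198 CPM. The genes were unevenly spread: the median control cell had no H2-Aa UMI, the median ISO cell had 146 CPM, and 1 control cell held 41.4% of the control H2-Aa UMIs. By number of rule genes, H2-Aa stood at 1697 CPM in ISO cells with 1 rule gene, 1256 CPM in those with 2, and 800.4 CPM in those with 3 or 4. With 3 or 4 rule genes, 2 of 6 genes were past 2-fold higher (background 11.8%), with a median of 0.70, and the Cd74 log2 ratio was 0.31 (0.17 to 0.46). The control cell with the most H2-Aa UMIs had all 4 rule genes. It held 104 of the 218 H2-Aa UMIs of the stricter control cells, so the smaller difference there depends in part on 1 cell. Without the C1q limit, which would admit macrophages, the median of the list was -1.26.

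Of 22 adhesion and migration genes, 5 were past 2-fold higher (background 11.4%) and 7 past 2-fold lower (background 14.3%). The shared integrin beta chain Itgb2 was at 849 CPM and 581 CPM, and its partner Itgam, which forms Mac-1, at 413 CPM and 599 CPM. The hyaluronan receptor Cd44 was at 912 CPM and 1027 CPM, a log2 ratio of 0.17 (0.01 to 0.33). The inflammatory chemokine receptor Ccr1 went from 12.2 CPM in 4 cells to 269 CPM in 59 cells. Itgal, Spn, S1pr5, and Cx3cr1, given above, were among the 7 lower genes.

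Myeloid transcription factors other than Nr4a1 and Pou2f2 differed less. Of 21 genes, 4 were past 2-fold higher and 5 past 2-fold lower, beside 11.4% and 14.3% of all genes, with a median of -0.21. Cebpb was at 4336 CPM and 3141 CPM, a log2 ratio of -0.47 (-0.55 to -0.39), Zeb2 at 1028 CPM and 1047 CPM, and Spi1 (PU.1) at 713 CPM and 613 CPM. Klf2, a factor of quiescent leukocytes, went from 560.0 CPM to 223 CPM, a log2 ratio of -1.33 (-1.59 to -1.07).

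Survival genes gave no single direction, with 4 of 19 past 2-fold higher and 2 past 2-fold lower, beside 11.4% and 14.3% of all genes, and a median log2 ratio of 0.44. Bcl2, which protects nonclassical monocytes from apoptosis, was at 93.7 CPM and 43.9 CPM, a log2 ratio of -1.09 (-1.72 to -0.47). With 3 or 4 rule genes the Bcl2 log2 ratio was -0.69 (-1.73 to 0.20). The relatives Mcl1 and Bcl2a1b were at 1452 CPM and 2037 CPM and at 389 CPM and 703 CPM. The proapoptotic Bcl2l11 (Bim) went from 104 CPM to 265 CPM, and the proapoptotic Pmaip1 (Noxa) from 202 CPM to 98.7 CPM. Csf1r, the receptor for the growth factor that these cells need, was at 747 CPM and 402 CPM, a log2 ratio of -0.90 (-1.10 to -0.69).

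Fc receptor and phagocytosis genes included members that differed in both directions, with 9 of 18 past 2-fold higher and 4 past 2-fold lower, beside 11.4% and 14.3% of all genes. The signalling adaptors Tyrobp and Fcer1g were nearly level, Tyrobp at 2707 CPM and 2748 CPM and Fcer1g at 2645 CPM and 2477 CPM. The scavenger receptor Msr1 went from 32.6 CPM to 347 CPM, a log2 ratio of 3.37 (2.69 to 4.24), which became -4.27 when the B cell level of each library was subtracted. ISO B cells had 346 CPM of Msr1, so the subtracted value rests on a very small remainder and shows no direction. Interferon response genes had 2 of 29 past 2-fold higher and 5 past 2-fold lower, shares near the 11.4% and 14.3% of all genes, and a median of -0.12, against -1.02 in classical monocytes. Ifitm3 was at 3816 CPM and 2726 CPM, and Isg15 at 132 CPM and 236 CPM.

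Glycolytic and hypoxia genes were higher in ISO, with 11 of 22 past 2-fold higher (background 11.4%), none past 2-fold lower (background 14.3%), and a median log2 ratio of 1.08. Pyruvate kinase Pkm went from 428 CPM to 1292 CPM, lactate dehydrogenase Ldha from 319.7 CPM to 806 CPM, and Tpi1 from 95.7 CPM to 372 CPM. Classical monocytes had a median of 1.38 for this list. In ISO B cells Pkm stood at 1187 CPM, against 161 CPM in control B cells. With the B cell level of each library subtracted, the log2 ratios reversed to -1.35 for Pkm, -1.73 for Ldha, and -1.32 for Tpi1.

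Genes of the beta-adrenergic pathway, through which ISO acts, were sparse and mixed. Of 18 genes, 4 were past 2-fold higher and 4 past 2-fold lower, beside 11.4% and 14.3% of all genes, with a median of -0.22. The cyclic AMP phosphodiesterase Pde4b was level, at 279 CPM and 270.2 CPM, while Pde3b went from 59.1 CPM to 14.0 CPM. Arrb2, which desensitizes the receptors, went from 46.8 CPM to 129 CPM, and the receptor kinase Adrbk1 was at 226 CPM and 179 CPM.

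Transcripts of other cell types were present in some of the selected cells and moved with some of the genes above. Fibroblast transcripts summed to 2476 CPM in the control cells and 239 CPM in the ISO cells, with the control median cell at 0 and the highest at 66912 CPM, and with the ISO median cell at 189 CPM. The 6 control cells with 1 rule gene held 1190 of the 1216 control UMIs of these genes. All 9 fibroblast genes were found in the control cells, and 7 of 9, Dcn and Col1a1 among them, were at 0 in the ISO cells. Dcn, whose 432 UMIs came from 2 control cells, was among the genes with the largest log2 ratios between the libraries, at least 294-fold lower in ISO against the 3-UMI floor. Mgp, Igfbp7, and Sparc likewise came from 2, 2, and 3 control cells, and the stricter set had no Dcn or Mgp UMI in either library. Conventional dendritic cell transcripts summed to 145 CPM and 307 CPM. In the ISO library they stood at 1125 CPM in cells with 1 rule gene, at 114 CPM in cells with 2, and 7 of the 22 cells with 1 rule gene had at least 5 such UMIs. Ccl17 and Ccl22, chemokines of mature dendritic cells, were found in no control cell and in 10 and 6 ISO cells, with 63.4% and 58.5% of the UMIs in 1 cell. Cells found by 1 rule gene in the ISO library had Treml4 alone in 10 cases, Eno3 in 8, and Ace in 4. Cardiomyocyte transcripts, from a tissue that also makes Eno3, reached 16264 CPM in 1 control cell and 19308 CPM in 1 ISO cell and had a median of 0 in both libraries. Neutrophil transcripts summed to 646 CPM and 1532 CPM, with Camp, Ngp, and Ly6g at 0 in both. Endothelial transcripts were at 472 CPM and 446 CPM, and natural killer cell transcripts at 6.11 CPM and 112 CPM. Fabp4, described above with the identity genes, was also on the endothelial list. It held 191 of that list's 232 control UMIs and 360 of its 447 ISO UMIs. The part of these transcripts in the differences between the libraries was not tested; the counts for the nonclassical identity, inflammatory, and macrophage lists in the stricter set are given with each list.

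**Figure D5:**
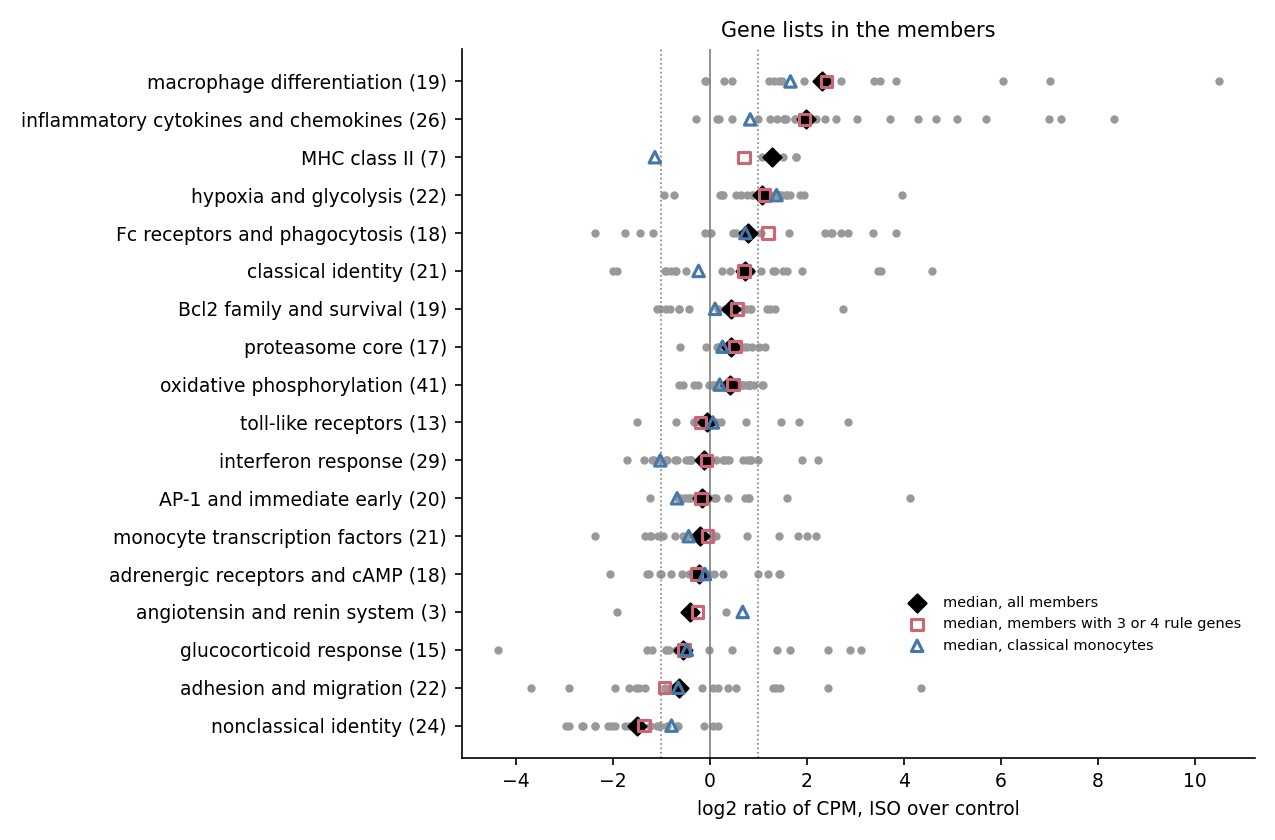
Log2 ratio of CPM, ISO over control, of each gene (grey points) in 18 gene lists, with the number of genes in parentheses and dotted lines at 2-fold. Black diamonds are list medians in all selected cells, red squares in cells with UMIs of 3 or 4 rule genes, and blue triangles in classical monocytes; the nonclassical identity median is -1.50 and the inflammatory median 1.99, while the MHC class II medians lie on opposite sides of 0 in selected cells and classical monocytes.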

How the data were processed

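The deposited values were UMI counts per gene and barcode, without normalization, for 2 libraries. Per the submitters' processing notes, the authors used bcl2fastq 2.19.1.403, UMI-tools 1.0.0, STAR 2.7.3a, and featureCounts 1.6.4 with mm10. Barcodes were kept when they had over 500 genes, below 6000 genes, and a mitochondrial share below 25%. The members, the 18 gene lists, and the 13 lists of other cell types were chosen with earlier results of these data known.

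UMIs were summed per class and library, scaled to CPM, and compared as log2 ratios with 0.5 UMI added, for genes with at least 20 UMIs. Each group was 1 library, so no test was made. Shares have exact Clopper-Pearson intervals, levels exact Poisson intervals, and ratios conditional binomial intervals, all at 95%. PCR and capture variation are not in them. The steps were tested on simulated data. Genes were named by rule: the markers, the 12 largest log2 ratios each way at 100 CPM or more between libraries and against classical monocytes, and in each list the 4 most abundant genes and the 2 largest ratios each way. Not all of these are described, and a further gene of a list is named where the text counts it. Certain genes are not reported here. In all, 24 planned and 4 added alternatives were computed.

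Scrublet, run in scanpy 1.11.5, marked 17 control cells (0.301%) and no ISO cell at its own threshold, which is too few to have worked. Doublets were therefore kept, and an alternative removed the highest scores. Analyses used Python 3.11.15, numpy 2.4.6, scipy 1.17.1, and pandas 2.3.3, with figures from matplotlib 3.10.9. Gene positions came from GENCODE M21 and promoters from RefSeq.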

Additional observations from a re-analysis of the deposited data

Results flagged for a closer look

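Genes are given here when their ISO to control ratio was past 2-fold in opposite directions in the selected cells and in classical monocytes. Each had at least 100 CPM in the higher library of both classes. With 1 library per group these differences were not tested. The log2 ratio in the selected cells minus that in classical monocytes was 2.21 for Cd74, 2.43 for H2-Eb1, 2.73 for H2-Aa, and 3.43 for H2-Ab1, all of the MHC class II pathway. H2-Eb1 was at 500.99 CPM and 1176 CPM in the selected cells and at 391 CPM and 171 CPM in classical monocytes. The difference was 2.55 for the growth factor Vegfa, at 46.8 CPM and 135 CPM in the selected cells and 201 CPM and 97.6 CPM in classical monocytes. It was 4.90 for the chemokine Ccl5, at 12.2 CPM and 173 CPM in the selected cells and 371 CPM and 164 CPM in classical monocytes. The Ccl5 ratio in the selected cells reversed to -0.0941 without the Cd209a and Flt3 limit and to -2.64 with cells thinned before selection. That thinning changed which cells were selected, to 131 control cells and 230 ISO cells. Natural killer cell transcripts, from cells that make much Ccl5, summed to 6.11 CPM and 112 CPM in the selected cells and to 638 CPM and 46.9 CPM in classical monocytes, where 1 control cell reached 23912 CPM, and their part in the difference was not tested. The control classical monocytes were 31 cells. In the cells with UMIs of 3 or 4 rule genes the ISO to control log2 ratios were 0.31 for Cd74, 0.46 for H2-Eb1, 0.42 for H2-Aa, 0.95 for H2-Ab1, 2.43 for Vegfa, and 2.76 for Ccl5. In that set 1 control cell held 104 of the 218 control H2-Aa UMIs.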

How the results depend on the processing

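No paired analysis was possible because each group was 1 library. The log2 share ratio among all kept cells, 0.14, became 0.89 with at least 2 rule UMIs, -0.58 with at least 5, -0.66 with at least 6, -1.48 with 3 or 4 rule genes, 0.87 with cells thinned to 2000 UMIs, -2.75 over selected cells plus classical monocytes, and -0.53 over cells with at most 2 B cell UMIs. The last, the 6-UMI, and the 3 or 4 gene alternatives were chosen after seeing the data. Thinning before the rule also lowered the UMIs of the limiting genes, and the rule then selected 131 control cells and 230 ISO cells. That alternative is therefore not a depth-matched check of the same cells. Among monocytes the ratio, -2.75, became -1.99, -3.13, -3.59, -3.83, and -4.56 with at least 2, 4, 5, and 6 UMIs and with 3 or 4 genes, -2.09 without the C1q limit, and -1.70 after thinning. Genes past 2-fold numbered 475 higher and 486 lower with at least 50 UMIs per gene, 1293 and 2088 with at least 5, 361 and 400 in thinned cells, and 507 and 632 with 3 or 4 genes. Genes higher than in classical monocytes numbered 220 without the C1q limit and 158 without the B cell limit. Genes lower numbered 13 with at least 2 UMIs, 44 with at least 6, and 43 with 3 or 4 genes. Genes whose ISO ratio differed past 2-fold from that in classical monocytes numbered 1340, and 826 with 3 or 4 genes.

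Of 432 list medians under the alternatives, 422 stayed within the main value's interval, 9 left it, and 1 reversed. Of 2714 values of 111 named genes, 2262 stayed, 431 left the interval, and 21 reversed. The list median that reversed was MHC class II without the C1q limit, at -1.26. Under that alternative Cd74 (-1.26), H2-Aa (-1.50), H2-Ab1 (-1.26), H2-Eb1 (-1.65), H2-DMa (-0.12), Mrc1 (-1.07), and Mt1 (-0.14) also reversed. With the CPM of B cells of the same library subtracted, 42 named genes had no value and 69 had one, and the sign reversed for Il1b (-0.85), Nfkbia (-0.87), S100a4 (-0.28), Lgals3 (-0.0907), Msr1 (-4.27), Ccr2 (-3.31), Pkm (-1.35), Ldha (-1.73), Aldoa (-0.18), and Tpi1 (-1.32). The 27 ISO B cells that set this level held the summed myeloid RNA given in the report. Values for genes close to that level in the ISO library, such as Msr1 and Ccr2, rest on a small remainder and show no direction. Other reversals were Ccl17 (-0.24) and Ccl5 (-2.64) with thinning before selection, Ccl5 (-0.0941) without the Cd209a and Flt3 limit, and Sparc (2.06) with at most 1 C1q UMI. The cause was not tested. Genes under about 20 UMIs could not be compared at this depth.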

Other observations

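Further gene lists were compared in the selected cells, where 11.4% of all genes were past 2-fold higher and 14.3% past 2-fold lower. Of 20 immediate early genes, 2 were past 2-fold higher in ISO and 1 lower, both shares under those of all genes, with a median log2 ratio of -0.16. The AP-1 subunit Junb was at 2743 CPM and 3554 CPM, and Zfp36, which speeds the decay of cytokine mRNAs, at 2559.9 CPM and 1777 CPM. Ier3, an early survival factor, stood apart, from 165 CPM to 2890.4 CPM, a log2 ratio of 4.12 (3.81 to 4.47). Of 15 glucocorticoid response genes, 5 were past 2-fold higher and 3 past 2-fold lower, beside 11.4% and 14.3% of all genes, and the median was -0.55. Zbtb16, an induced zinc finger factor, had 35 UMIs in 26 control cells and 3 UMIs in 3 ISO cells, a log2 ratio of -4.37 (-6.92 to -2.91). The metallothionein Mt1 went from 44.8 CPM to 337 CPM, Dusp1 was level at 1454 CPM and 1433 CPM, and the receptor gene Nr3c1 was at 199.6 CPM and 80.8 CPM.

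Of 13 toll-like receptor pathway genes, 3 were past 2-fold higher and 1 lower, beside 11.4% and 14.3% of all genes. Tlr2, which senses bacterial lipoproteins, was at 236 CPM and 398 CPM, and Tlr7, a receptor for single-stranded RNA, at 99.8 CPM and 34.9 CPM, a log2 ratio of -1.51 (-2.18 to -0.86). Oxidative phosphorylation genes showed 2 of 41 past 2-fold higher and none lower, beside 11.4% and 14.3% of all genes, with a median of 0.42 in the selected cells and 0.20 in classical monocytes. Proteasome core genes showed 2 of 17 higher, a share near the 11.4% of all genes, and none lower, beside 14.3%, with medians of 0.43 and 0.26. Ace and 2 other genes of the angiotensin list had enough UMIs, and apart from the rule gene Ace they lay within 2-fold. Of the gene lists of other cells, B cell transcripts summed to 375 CPM and 123 CPM in the selected cells, T cell transcripts to 30.5 CPM and 21.9 CPM, plasmacytoid dendritic cell transcripts to 405 CPM and 345 CPM, platelet transcripts to 16.3 CPM and 164 CPM, erythroid transcripts to 2.04 CPM and 1.99 CPM, and cardiomyocyte transcripts to 212 CPM and 314 CPM. Mast cell and basophil transcripts had no UMI in the control cells and 2 in the ISO cells.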
